A study of Arabidopsis thaliana with 6 samples.

Results

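The miRNA profile of the Arabidopsis mutant hyl1-2 was compared directly with that of the triple mutant snrk2.2/3/6. The comparison used the 4 small RNA libraries of both mutants out of 6 libraries in the series, 2 for each of 3 genotypes, and was chosen by genotype and not by any measured value. All RNA came from rosette leaves of plants aged 3 weeks and grown in soil, and the study's methods call the 2 libraries of a genotype biological replicates. hyl1-2 carries a mutation in the gene for HYL1, snrk2.2/3/6 carries mutations in 3 SnRK2 kinase genes, and the wild type (WT, accession Col) carries neither and is given beside them. The table lists 349 mature miRNA sequences, each with its number of identical reads and its level in reads per 10000000 genome-matched small RNA reads (RPTM). Small RNA reads do not measure HYL1 or the kinase transcripts, so the genotype labels could not be checked in these libraries.

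In plants the hairpin precursors of miRNAs are cut in the nucleus by DCL1, and HYL1, which binds the paired stem, helps this enzyme to cut at the right position. The kinases missing in snrk2.2/3/6 are activated by the hormone abscisic acid and phosphorylate many nuclear and cytoplasmic proteins. A plant miRNA hairpin yields a duplex of a 5p and a 3p strand, of which usually only the guide strand is kept in an ARGONAUTE protein, where it directs the cleavage of target mRNAs.

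The sequences below carry the comparison and are printed 5′ to 3′ as in the deposited table, with T for U and the seed (bases 2 to 8) in capitals. Among miRNAs that hyl1-2 held less of than snrk2.2/3/6, both in level and as a share of all miRNA reads, the following are shown because they hold most of the reads or lie furthest apart.
miR159a: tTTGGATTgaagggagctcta
miR159b-3p: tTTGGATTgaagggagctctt
miR163: tTGAAGAGgacttggaacttcgat
miR396a-5p: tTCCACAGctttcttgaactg
miR396a-3p: gTTCAATAaagctgtgggaag
miR447a.2-3p: tATGGAAGaaattgtagtatt
miR173-5p: tTCGCTTGcagagagaaatcac
miR781a/b: tTAGAGTTttctggatactta

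Among miRNAs that took a larger share of the miRNA reads in hyl1-2, the following are shown because their calls rest on many reads or did not depend on a single library.
miR5026: aCTCATAAgatcgtgacacgt
miR396b-5p: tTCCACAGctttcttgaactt
miR396b-3p: gCTCAAGAaagctgtgggaaa
miR393b-3p: aTCATGCGatctctttggatt
miR168a-5p/b-5p: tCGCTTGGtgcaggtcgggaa
miR840-5p: aCACTGAAggacctaaactaac

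miR159a and miR159b-3p share the seed TTGGATT, and miR396a-5p and miR396b-5p share the seed TCCACAG. Counted from 1 at the 5′ end of the first-named sequence, miR159a and miR159b-3p differ only by A21T, and miR396a-5p and miR396b-5p only by G21T. The other strands of the miR396 hairpins, miR396a-3p and miR396b-3p, differ by T2C, T7G and G21A and so have different seeds. Reads were counted only where they were identical to the listed sequence, so these near copies were counted separately.

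The 4 mutant libraries held between 16041013 and 19601046 genome-matched reads. Of these, 7141 and 6670 were miRNA reads in hyl1-2, and 29014 and 10386 in snrk2.2/3/6 replicates 1 and 2. The summed miRNA level was 3643 and 3624 RPTM in hyl1-2, 17175 and 6475 RPTM in snrk2.2/3/6, and 21142 and 18668 RPTM in WT. Both hyl1-2 libraries lay below both snrk2.2/3/6 libraries. The mean was 3633 ± 13.7 RPTM (SD, n = 2) in hyl1-2 and 11825 ± 7566 RPTM (SD, n = 2) in snrk2.2/3/6, a ratio of 3.25 (exact permutation test, two-sided p = 0.333, the smallest that 2 libraries against 2 can give). Among the mutants the snrk2.2/3/6 libraries were far apart: replicate 1 was above replicate 2 in RPTM for 57 of the 59 tested sequences, and the ratio was 4.73 without replicate 2 and 1.78 without replicate 1. Replicates of all 3 genotypes differed beyond counting noise (the chi-square divided by its degrees of freedom was 6.47 for hyl1-2, 10.5 for snrk2.2/3/6 and 5.60 for WT), and each library was therefore 1 replicate. Fewer cells of a type and less miRNA per cell cannot be told apart in whole rosette leaves. Only reads identical to a listed sequence were counted, so reads with shifted ends are missing from these levels. The paper reports that the accuracy of processing was affected in the mutant of HYL1, and not substantially in the kinase mutant. How far such missing reads bear on the levels, shares, copy ratios and arm use of hyl1-2 was not tested. Intervals and read floors below cover counting error only. The edgeR p-values rest on a spread between replicates, 2 per genotype, that is estimated from all 6 libraries and partly shared across the tested sequences.

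Because total miRNA differed between the mutants, each miRNA was compared on 2 scales. Abundance is relative to all genome-matched reads and keeps a difference shared by most miRNAs. Share is relative to the miRNA reads of the library and asks which miRNAs lost or kept more than the rest. The test took in the 59 sequences whose mean count reached 10 reads across the 6 libraries, and they held 98.8% of the miRNA reads of the mutants. Grouped by miRNA number, 39 families passed the same limit.

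On the abundance scale edgeR's quasi-likelihood test called 27 of the 59 sequences (45.8%) lower in hyl1-2 and 0 (0%) higher, with a threshold of 0.05 on the adjusted p. With the same threshold on the unadjusted p it called 32 (54.2%) lower and 1 (1.69%) higher. DESeq2 and limma each called 1 as higher. The median log2 difference over the tested sequences was -2.10. By library, 39 of 59 sequences (66.1%) had both hyl1-2 values below both snrk2.2/3/6 values, and 1 (1.69%), miR840-5p, had both above. Of the 39 families, 18 (46.2%) were lower and 0 (0%) higher by edgeR, with 20 (51.3%) and 0 before adjustment, and DESeq2 called 1 as higher. Both hyl1-2 levels were below both snrk2.2/3/6 levels in 27 families (69.2%) and above them in 1 (2.56%), miR840. With TMM factors, which set the typical miRNA equal between libraries, the median over sequences moved to -0.16, and 8 sequences were lower and 10 higher. These counts moved with single libraries. Without hyl1-2 replicate 1 or 2, edgeR called 6 or 2 sequences and 0 or 4 families lower. Without snrk2.2/3/6 replicate 1 it called 11 sequences and 15 families lower, and 3 sequences and 2 families higher. Without snrk2.2/3/6 replicate 2 it called 38 sequences and 27 families lower. Without WT replicate 1 or 2, which enter the estimate of spread, 15 or 11 sequences and 9 or 2 families were lower. Of the 27 calls, 1 passed whichever library was left out, that of miR447a.2-3p.

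On the share scale 13 sequences (22%) were lower in hyl1-2 and 10 (16.9%) higher by edgeR, with a median log2 difference of -0.46. Before adjustment 16 (27.1%) were lower and 11 (18.6%) higher. Both hyl1-2 shares lay below both snrk2.2/3/6 shares for 22 sequences (37.3%) and above them for 16 (27.1%). Of the families, 7 (17.9%) were lower and 8 (20.5%) higher, and the shares were separated with hyl1-2 below in 16 (41%) and above in 12 (30.8%). The spread shared by the sequences was smaller on this scale, with a biological coefficient of variation of 29.5% against 50% on abundance. Leaving out WT replicate 1 or 2 gave 7 sequences lower in either case and 6 or 5 higher, and leaving out snrk2.2/3/6 replicate 1 or 2 gave 8 lower and 6 higher in either case. For families, leaving out snrk2.2/3/6 replicate 1 gave 3 lower and 2 higher, leaving out replicate 2 gave 2 lower and 0 higher, and leaving out hyl1-2 replicate 1 gave 3 lower and 4 higher. Of the 23 sequence calls, 11 passed whichever library was left out, and of the 15 family calls 2 did, those of miR159 and miR163. All 13 sequences with a lower share were also lower in abundance, and 14 were lower in abundance only, while the 10 with a larger share had no call on abundance.

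**Figure D1:**
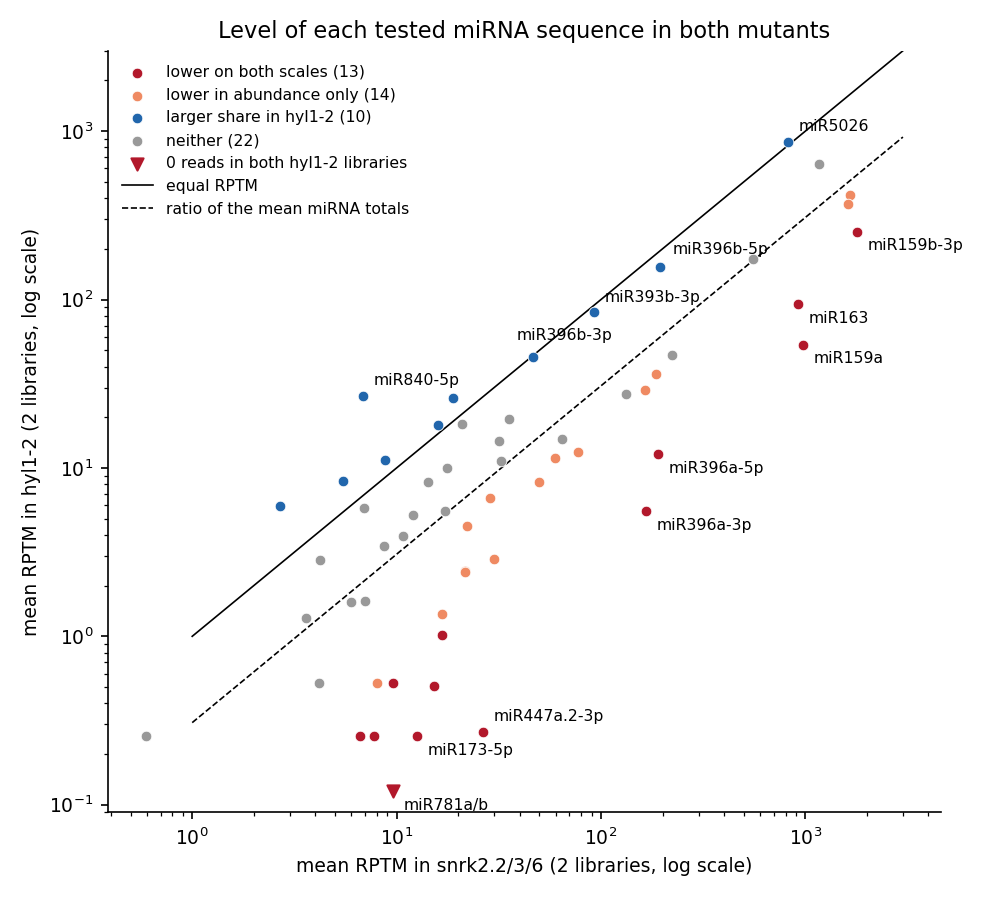
Mean RPTM of each of the 59 tested sequences in snrk2.2/3/6 (horizontal) and hyl1-2 (vertical), both on log scales, with the solid line at equal levels and the dashed line at the ratio of the miRNA totals (3.25). The 13 sequences lower on both scales lie below the dashed line, and the 10 with a larger share in hyl1-2 lie near or above the solid line.

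The 13 sequences that were lower on both scales held 11.0% and 12.2% of the miRNA reads in hyl1-2, against 35.6% and 33.6% in snrk2.2/3/6 and 32.3% and 34.2% in WT. The 10 sequences with a larger share held 31.3% and 37.5% in hyl1-2, against 11.4% and 7.10% in snrk2.2/3/6 and 7.41% and 9.13% in WT. The members of both groups were chosen by this contrast, so these sums describe how much of each profile they make up.

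Most of the lower reads belonged to miR159, the family that cleaves the mRNAs of GAMYB-like transcription factors and the one with the most reads over the 6 libraries. It stood at 284 and 334 RPTM in hyl1-2, 4144 and 1411 RPTM in snrk2.2/3/6 and 5806 and 5205 RPTM in WT. As a share of miRNA reads it made up 7.79% (95% Wilson interval 7.19 to 8.43) and 9.21% (8.53 to 9.92) in hyl1-2, and 24.1% (23.6 to 24.6) and 21.8% (21 to 22.6) in snrk2.2/3/6. All snrk2.2/3/6 values were thus above all hyl1-2 values on both scales, with 27.5% and 27.9% in WT. The snrk2.2/3/6 share differed from WT by -0.27 on the log2 scale, which missed the threshold (adjusted p = 0.568, edgeR). The log2 difference, hyl1-2 minus snrk2.2/3/6, was -3.17 in abundance (SE 0.68, adjusted p = 0.000328, edgeR) and -1.43 in share (SE 0.32, adjusted p = 0.000335, edgeR), or 9.0 times lower in level. The family was lower under each of the 3 scalings run, at -1.47 with TMM factors, although its abundance call was lost without hyl1-2 replicate 1.

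The members of miR159 differed in size. miR159a, from MIR159a (AT1G73687) on chromosome 1, 27713234 to 27713254, minus strand in TAIR10.1, stood at 53.1 and 54.9 RPTM in hyl1-2 and at 1454 and 501 RPTM in snrk2.2/3/6. miR159b-3p, from MIR159b (AT1G18075) on chromosome 1, 6220813 to 6220833, plus strand, stood at 230.1 and 276 RPTM in hyl1-2 and at 2679 and 901 RPTM in snrk2.2/3/6. Both miR159 sequences were separated between the mutants in every library. By edgeR, the log2 difference was -4.18 (SE 0.82, adjusted p = 5.71e-05) for miR159a and -2.82 (SE 0.71, adjusted p = 0.00167) for miR159b-3p in abundance. In share it was -2.45 (SE 0.30, adjusted p = 3.12e-05) and -1.08 (SE 0.29, adjusted p = 0.00791), and both share calls passed with any library left out. With TMM factors miR159a kept its call on both scales, and miR159b-3p, at -0.88 in abundance and -0.645 in share, missed the threshold on both (adjusted p = 0.0725 and 0.0572, edgeR). The abundance call of miR159a was lost without hyl1-2 replicate 2, and that of miR159b-3p without either hyl1-2 replicate.

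miR163, a miRNA of 24 nt that targets mRNAs of S-adenosylmethionine-dependent methyltransferases, had a different relation to WT. It comes from the 3p arm of MIR163 (AT1G66725) on chromosome 1, 24884359 to 24884382, plus strand. Its level was 96.4 and 91.8 RPTM in hyl1-2, 1343 and 497 RPTM in snrk2.2/3/6 and 372 and 512 RPTM in WT. Its share was 2.65% and 2.53% in hyl1-2, 7.82% and 7.67% in snrk2.2/3/6 and 1.76% and 2.74% in WT. The hyl1-2 shares of miR163 lay within the range of WT and the snrk2.2/3/6 shares lay above both. Between the mutants the log2 difference was -3.29 in abundance (SE 0.89, adjusted p = 0.0021, edgeR) and -1.58 in share (SE 0.31, adjusted p = 0.00122, edgeR). Against WT, the share differed by 0.20 in hyl1-2 (adjusted p = 0.62, edgeR) and by 1.78 in snrk2.2/3/6 (adjusted p = 0.0014, edgeR), 2 comparisons that share the WT libraries. The abundance gave another picture, with differences from WT of -2.23 in hyl1-2 (adjusted p = 0.017, edgeR) and 1.06 in snrk2.2/3/6 (adjusted p = 0.465, edgeR). The level in snrk2.2/3/6 replicate 2 lay between those of the WT libraries. The share call between the mutants passed with any library left out and under TMM factors, and the abundance call was lost without either hyl1-2 replicate.

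The miR396 family, which cleaves the mRNAs of GROWTH-REGULATING FACTOR transcription factors, had no call as a family, while its 2 genes lay on opposite sides in share and only MIR396a was lower in level. miR396a-5p stood at 11.7 and 12.5 RPTM in hyl1-2 against 264 and 115 RPTM in snrk2.2/3/6, whereas miR396b-5p stood at 172 and 140.2 RPTM in hyl1-2 against 345 and 44.3 RPTM in snrk2.2/3/6. miR396a-3p stood at 4.59 and 6.52 RPTM in hyl1-2 against 233 and 99.1 RPTM in snrk2.2/3/6, and miR396b-3p at 41.8 and 49.4 RPTM against 73.4 and 19.9 RPTM. Both strands of MIR396a were separated between the mutants, and both strands of MIR396b overlapped.

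By edgeR, the abundance of miR396a-5p differed by -3.96 on the log2 scale (SE 1.07, adjusted p = 0.0021) and that of miR396a-3p by -4.89 (SE 1.14, adjusted p = 0.000563). Both abundance calls were lost without either hyl1-2 replicate. In share the differences were -2.31 (SE 0.39, adjusted p = 0.000444) for miR396a-5p and -3.24 (SE 0.42, adjusted p = 3.68e-05) for miR396a-3p. For miR396b-5p and miR396b-3p the abundance differences were -0.32 (SE 0.89, adjusted p = 0.804) and -0.03 (SE 0.94, adjusted p = 0.972), while their shares were higher in hyl1-2 by 1.66 (SE 0.41, adjusted p = 0.00499) and 1.75 (SE 0.40, adjusted p = 0.0033). The share calls of both MIR396a strands and of miR396b-3p passed with any library left out, and that of miR396b-5p was lost without WT replicate 1 or 2. The share directions were the same with TMM factors.

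A ratio of both copies within a library does not depend on the scaling. This ratio was looked at after the values were seen. miR396a-5p made up 6.39% (95% Wilson interval 4.29 to 9.40) and 8.19% (5.52 to 12) of the reads of miR396a-5p and miR396b-5p in hyl1-2. It made up 43.4% (40.4 to 46.4) and 72.3% (66.5 to 77.4) in snrk2.2/3/6 and 33.8% and 41.6% in WT. For the 3p strands, miR396a-3p made up 9.89% and 11.7% in hyl1-2, 76.1% and 83.2% in snrk2.2/3/6 and 76.8% and 74.7% in WT. On both strands every hyl1-2 library was below every library of the other genotypes. The edgeR abundance differences between the mutants, first copy minus second, lay apart by -3.64 on the 5p and -4.85 on the 3p strand. For the percents, the exact permutation test between the mutants gave a two-sided p = 0.333 on each strand, the smallest possible. The same count gave 18.7% and 16.6% miR159a of miR159a and miR159b-3p in hyl1-2, 35.2% and 35.7% in snrk2.2/3/6 and 42.7% and 39.8% in WT. It gave 2.27% and 2.25% miR165a-3p/b of miR165a-3p/b and miR166a-3p/b-3p/c/d/e-3p/f/g in hyl1-2, 6.08% and 4.05% in snrk2.2/3/6 and 14.9% and 12.3% in WT. Among other pairs of near copies, miR398a-3p of miR398a-3p and miR398b-3p/c-3p overlapped between the mutants, at 0.95% and 1.48% in hyl1-2 against 1.16% and 1.65% in snrk2.2/3/6. Of the 10 pairs looked at, 7 were separated between the mutants and 3 overlapped, and p = 0.333 (exact permutation test, two-sided) held for each separated pair. The separated pairs did not all have hyl1-2 lower. miR167d of miR167d and miR167a-5p/b made up 11.65% and 8.42% in hyl1-2 against 5.42% and 4.53% in snrk2.2/3/6. The separated pair of miR319c and miR319a/b had 5 and 2 reads of both copies in hyl1-2. miR158b of miR158b and miR158a-3p made up 0.149% and 0.1105% there.

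**Figure D2:**
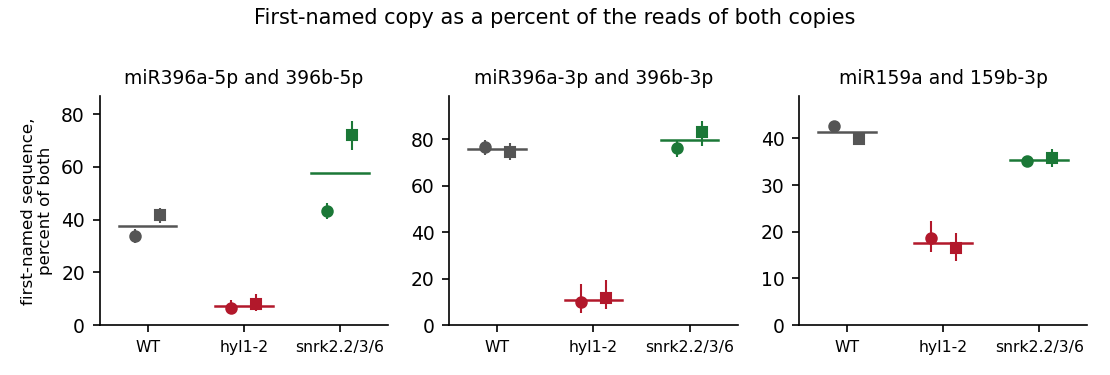
Reads of the first-named copy as a percent of the reads of both copies (vertical) in each library of WT, hyl1-2 and snrk2.2/3/6; circles are replicate 1, squares replicate 2, vertical bars 95% Wilson intervals and horizontal lines the mean of 2 libraries. hyl1-2 lies lowest for miR396a-5p (6.39% and 8.19%), miR396a-3p (9.89% and 11.7%) and miR159a (18.7% and 16.6%).

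The hairpins of both miR396 genes are printed because they give nearly the same mature strands from different surroundings. The annotated precursors in TAIR10.1 are shown 5′ to 3′ with the 5p and 3p miRNAs in capitals.
MIR396a: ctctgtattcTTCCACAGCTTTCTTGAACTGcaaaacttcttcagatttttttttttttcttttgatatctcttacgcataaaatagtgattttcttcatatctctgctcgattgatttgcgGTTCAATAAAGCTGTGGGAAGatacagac
MIR396b: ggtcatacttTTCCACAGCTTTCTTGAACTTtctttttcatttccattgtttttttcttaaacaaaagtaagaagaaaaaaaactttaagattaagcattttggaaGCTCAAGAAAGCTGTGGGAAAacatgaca

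MIR396a (AT2G10606) lies on chromosome 2, 4142323 to 4142473, minus strand, and is 151 nt long, with 91 nt between the miRNA strands. MIR396b (AT5G35407) lies on chromosome 5, 13611798 to 13611932, plus strand, and is 135 nt long, with 75 nt between them. Their GC content was 33.8% and 30.4%, and their predicted folding energy -48.2 and -46.6 kcal/mol (RNAfold). Whether these features bear on the difference was not tested.

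Of the other families lower on both scales, 5 rested on very few reads in hyl1-2. miR173-5p, which starts the production of trans-acting siRNAs from TAS1 and TAS2 transcripts, had 1 and 0 reads in hyl1-2, 35 and 7 in snrk2.2/3/6 and 22 and 30 in WT. Pooled over libraries its level was 48.5 times higher in snrk2.2/3/6 (95% counting interval 8.24 to 1959). By edgeR it was lower in hyl1-2 in abundance (adjusted p = 0.0021) and in share (adjusted p = 0.0169); the abundance call was lost without hyl1-2 replicate 2 or snrk2.2/3/6 replicate 1, and the share call also without either WT replicate.

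miR447a.2-3p, from a family directed at 2-phosphoglycerate kinase mRNA, had 0 and 1 reads in hyl1-2, 72 and 17 in snrk2.2/3/6 and 50 and 67 in WT. The pooled level was 103 times higher in snrk2.2/3/6 (95% counting interval 18 to 4102), with an adjusted p of 6.96e-05 in abundance and 0.00408 in share by edgeR. Only the share call was lost, without snrk2.2/3/6 replicate 1, when single libraries were left out. miR781a/b had 0 and 0 reads in hyl1-2, 24 and 8 in snrk2.2/3/6 and 13 and 20 in WT. Against a floor of 3 reads over both hyl1-2 libraries its level was at least 12.3-fold higher in snrk2.2/3/6 and its share at least 3.74-fold higher (adjusted p = 0.0021 and 0.00337, edgeR). With the counting error of the snrk2.2/3/6 reads included, as in the intervals of the other miRNAs, the lower 95% limits were 9.45 and 2.87. Its abundance call was lost without WT replicate 2 or either hyl1-2 replicate. MIR781a and MIR781b lie within an intron of the protein-coding gene AT1G21200.

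miR824-3p, the strand opposite the miRNA that targets the MADS-box gene AGL16, had 1 and 0 reads in hyl1-2 against 20 and 6 in snrk2.2/3/6, a pooled ratio of 30 (95% counting interval 4.93 to 1230.1). miR391-5p, a relative of miR390, had 1 and 0 reads in hyl1-2 against 17 and 5 in snrk2.2/3/6, a pooled ratio of 25.4 (4.10 to 1048). All hyl1-2 counts of these miRNAs were below all snrk2.2/3/6 counts. Their share calls (adjusted p = 0.0461 and 0.0382, edgeR) were lost with any of at least 5 of the 6 libraries left out, and their abundance calls (adjusted p = 0.00507 and 0.018, edgeR) without WT replicate 2, hyl1-2 replicate 2 or snrk2.2/3/6 replicate 1, and for miR391-5p without any of the others but snrk2.2/3/6 replicate 2.

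The remaining 3 sequences lower on both scales belonged to developmental families. miR156c-3p and miR167a-3p are the strands opposite the miRNAs that target SPL and ARF transcription factors, and miR319c targets TCP factors. miR156c-3p had 2 and 0 reads in hyl1-2 against 27 and 23 in snrk2.2/3/6, miR167a-3p had 4 and 0 against 32 and 23, and miR319c had 1 and 1 against 24 and 8. The pooled level was 28.9 times higher in snrk2.2/3/6 for miR156c-3p (95% counting interval 7.58 to 245) and 18.5 times for miR319c (4.71 to 159). None of the 3 share calls passed with every library left out in turn. In snrk2.2/3/6 the shares of miR156c-3p, 0.0931% and 0.221%, and of miR167a-3p, 0.110% and 0.221%, were above both WT libraries, at 0.0665% and 0.0493% and at 0.0723% and 0.0460%. miR319a/b, the other tested miR319 sequence, had 4 and 1 reads in hyl1-2, 9 and 3 in snrk2.2/3/6 and 281 and 49 in WT. Its levels and shares overlapped between the mutants (adjusted p = 0.324 and 0.856, edgeR). In WT it stood at 172 and 30.1 RPTM, and its log2 difference in abundance, snrk2.2/3/6 minus WT, was -4.78. Only its WT reads brought it to the limit for testing. A fall from WT was thus favoured by the filter, and no test of it is given.

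As families, miR781, miR173, miR824, miR447 and miR391 were lower in hyl1-2 by edgeR on both scales, with share differences from -7.00 (adjusted p = 0.00806) for miR781 to -2.22 (adjusted p = 0.0304) for miR391, and they stayed lower with TMM factors, where the share of miR391 missed the threshold (adjusted p = 0.0507). Each of their abundance calls depended on single libraries too. With libraries left out in turn, the abundance difference ran from -7.64 to -6.13 for miR781 and from -5.32 to -3.06 for miR391. All 5 family share calls were lost without hyl1-2 replicate 1, without snrk2.2/3/6 replicate 1 and without snrk2.2/3/6 replicate 2. Those of miR781, miR824 and miR173 were also lost without hyl1-2 replicate 2, and that of miR391 without either WT replicate.

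In 8 further families (miR169, miR395, miR846, miR398, miR319, miR156, miR403 and miR167) the abundance was lower and the share difference missed the threshold, although every hyl1-2 library lay below every snrk2.2/3/6 library on both scales. The 3 with the smallest adjusted p in abundance follow. miR169 had 1 and 8 reads in hyl1-2, 50 and 24 in snrk2.2/3/6 and 144 and 130 in WT (abundance -3.18, adjusted p = 0.0105, edgeR). All but a few of these reads were of miR169f-3p, the strand opposite the one that targets NF-YA transcription factors. No other miR169 sequence reached the limit for testing. miR846, which targets jacalin lectin mRNAs, had 3 and 6 reads in hyl1-2, 57 and 19 in snrk2.2/3/6 and 27 and 39 in WT (abundance -3.22, adjusted p = 0.0115, edgeR). miR395, which acts in sulfate assimilation, stood at 7.14 and 15.2 RPTM in hyl1-2, 112 and 46.8 RPTM in snrk2.2/3/6 and 31.8 and 55.2 RPTM in WT (abundance -2.82, adjusted p = 0.0115, edgeR). Without hyl1-2 replicate 1 these 3 calls were lost, as were those of miR846 and miR395 without replicate 2, and each was lost without WT replicate 2. That of miR846 was also lost without snrk2.2/3/6 replicate 1 and that of miR395 without WT replicate 1, and all 3 missed the threshold with TMM factors, at -1.64, -1.57 and -1.21.

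On the other side, miR5026 had the most reads in hyl1-2 among the sequences with a larger share there. Its level was 736 and 999 RPTM in hyl1-2, 1311 and 331 RPTM in snrk2.2/3/6 and 806 and 1026 RPTM in WT. These levels overlapped between all genotypes (log2 difference between the mutants 0.08, SE 0.75, adjusted p = 0.931, edgeR). Its share was 20.2% (95% Wilson interval 19.3 to 21.2) and 27.6% (26.5 to 28.6) in hyl1-2, 7.63% (7.33 to 7.94) and 5.11% (4.71 to 5.55) in snrk2.2/3/6 and 3.81% and 5.50% in WT. The share was 3.74 times higher in hyl1-2 than in snrk2.2/3/6 (log2 difference 1.90, SE 0.33, adjusted p = 0.000489, edgeR) and passed with any library left out. As the only sequence of its family it was tested again among the families, where the call was lost without snrk2.2/3/6 replicate 2. miR5026 matches MIR5026 (AT4G06075) on chromosome 4, 7844612 to 7844632, plus strand, inside an intron of the non-coding RNA gene AT4G13495. A further exact match on chromosome 5, 14318730 to 14318750, minus strand, has no annotated miRNA gene, and reads of the 2 places cannot be told apart.

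miR393b-3p is the strand opposite miR393, which targets the auxin receptors TIR1 and AFB. It stood at 88.8 and 79.3 RPTM in hyl1-2, 155 and 29.9 RPTM in snrk2.2/3/6 and 68.5 and 76.1 RPTM in WT. Its levels overlapped between the mutants, while its share was larger, at 2.44% and 2.19% in hyl1-2 against 0.90% and 0.462% in snrk2.2/3/6 (log2 difference 1.74, SE 0.39, adjusted p = 0.0033, edgeR), and the call passed with any library left out. The guide strand miR393a-5p/b-5p itself was below the limit for testing, so the family value is that of miR393b-3p in all but a few reads.

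miR168a-5p/b-5p, which targets ARGONAUTE1, stood at 22.4 and 29.3 RPTM in hyl1-2, 30.2 and 7.48 RPTM in snrk2.2/3/6 and 45.9 and 34.4 RPTM in WT. Its shares of 0.616% and 0.810% in hyl1-2 were above the 0.176% and 0.116% of snrk2.2/3/6 and the 0.217% and 0.184% of WT. The log2 difference in share between the mutants was 2.24 (SE 0.50, adjusted p = 0.0033, edgeR) and passed with any library left out. miR840-5p was the only tested sequence above snrk2.2/3/6 in level in both hyl1-2 libraries, at 35.2 and 18.5 RPTM against 11.2 and 2.49 RPTM, with 1.22 and 3.07 RPTM in WT. Only its hyl1-2 reads brought miR840-5p to the limit for testing. The filter thus favoured a rise there, and its p-values add no support for one. Its abundance differed by 1.95 (SE 0.91, adjusted p = 0.0636, edgeR) and its share by 3.72 (SE 0.66, adjusted p = 0.000489, edgeR), a share call that passed with any library left out. The sequence lies in MIR840 (AT2G02741) on chromosome 2, 771492 to 771513, minus strand, where an exon of AT2G02750, which encodes a protein, runs on the same strand, so fragments of that transcript cannot be told apart from the miRNA.

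The other 4 sequences with a larger share in hyl1-2 rested on fewer reads, or on libraries without which the call was lost. miR822-5p, a miRNA known to be cut by DCL4 in place of DCL1, had shares of 0.616% and 0.375% in hyl1-2 against 0.128% and 0.154% in snrk2.2/3/6 (log2 difference 1.83, adjusted p = 0.0214, edgeR). miR408-5p, the strand opposite the miRNA that targets laccase and plantacyanin mRNAs, had 0.224% and 0.390% against 0.0620% and 0.106% (1.94, adjusted p = 0.0295, edgeR). miR164a/b-5p, which targets CUC genes and other NAC factors, had 0.322% and 0.135% against 0.0276% and 0.0963% (2.10, adjusted p = 0.0461, edgeR). miR399b/c-3p, which targets the ubiquitin-conjugating enzyme PHO2, had 4 and 18 reads in hyl1-2 against 7 and 2 in snrk2.2/3/6 (2.80, adjusted p = 0.015, edgeR). All 4 calls were lost without snrk2.2/3/6 replicate 1 and without replicate 2, and each was also lost without at least 1 hyl1-2 or WT library.

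The position of WT split these 10 sequences. By edgeR, the hyl1-2 share was above WT for miR393b-3p (log2 difference 2.66, adjusted p = 9.4e-05), miR5026 (2.36, adjusted p = 5.4e-05), miR408-5p (2.81, adjusted p = 0.0035), miR822-5p (2.01, adjusted p = 0.008), miR168a-5p/b-5p (1.82, adjusted p = 0.0059) and miR396b-3p (1.51, adjusted p = 0.0054). The share of miR840-5p was above WT by 6.01, but only its hyl1-2 reads brought it to the limit for testing. For miR164a/b-5p, miR399b/c-3p and miR396b-5p the hyl1-2 share was not called above WT, with differences of 0.63 (adjusted p = 0.51), 1.2 (adjusted p = 0.17) and 0.95 (adjusted p = 0.062). The snrk2.2/3/6 share of these last 3 differed from WT by -1.47 (adjusted p = 0.17), -1.60 (adjusted p = 0.17) and -0.70 (adjusted p = 0.23), which missed the threshold, as did the other 7 sequences there. Both sets of comparisons share the WT libraries. These shares are of a smaller miRNA total in hyl1-2, with a mean of 3633 RPTM against 19905 RPTM in WT. In abundance, hyl1-2 minus WT was 0.22 for miR393b-3p, -0.08 for miR5026 and -0.42 for miR822-5p. It was -0.63 for miR168a-5p/b-5p, -0.94 for miR396b-3p and -0.96 for the family miR408, and none of these passed the threshold. For the family miR840 it was 3.44.

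As families, miR168, miR408, miR393, miR822, miR5026, miR164, miR399 and miR840 had a larger share in hyl1-2, from 1.40 (adjusted p = 0.0138) for miR168 to 3.75 (adjusted p = 1.95e-05) for miR840 by edgeR. In abundance their differences ran from -0.39 to 1.98 and none passed the threshold, and with TMM factors on the share scale all 8 were higher. Only its hyl1-2 reads brought miR840 to the limit for testing. All 8 share calls were lost without snrk2.2/3/6 replicate 2.

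**Figure D3:**
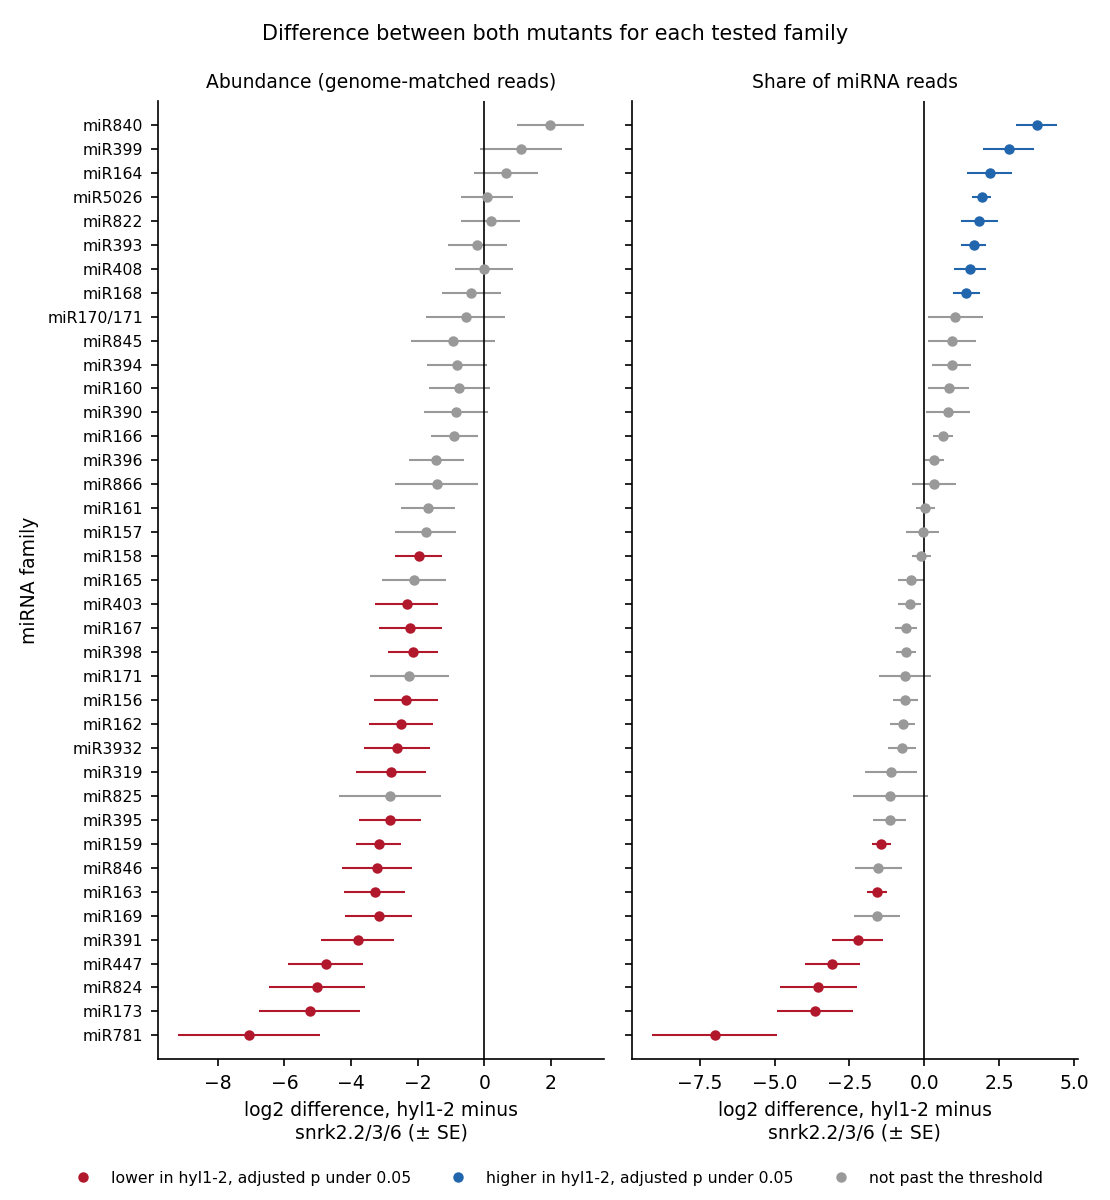
Log2 difference, hyl1-2 minus snrk2.2/3/6, of each of the 39 tested families in abundance (left) and in share of miRNA reads (right), as points with 1 SE from edgeR, ordered by share. In abundance 18 families are lower and 0 higher, and in share 7 are lower and 8 higher.

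Some of the most abundant miRNAs were lower in level and not in share. miR158a-3p, which has target sites in mRNAs of pentatricopeptide repeat (PPR) proteins, stood at 342 and 491 RPTM in hyl1-2 and at 2731 and 579.8 RPTM in snrk2.2/3/6. Its abundance differed by -1.99 (SE 0.70, adjusted p = 0.0162, edgeR), a call lost with any library left out but snrk2.2/3/6 replicate 2, while its shares overlapped, at 9.38% and 13.6% against 15.9% and 8.95%. With TMM factors its abundance difference was 0.061, in the other direction (adjusted p = 0.892, edgeR).

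miR398b-3p/c-3p, which targets copper/zinc superoxide dismutases, stood at 372 and 361 RPTM in hyl1-2, 1971 and 1266 RPTM in snrk2.2/3/6 and 1731 and 1513 RPTM in WT. The abundance difference was -2.14 (SE 0.74, adjusted p = 0.0149, edgeR) and was lost without either WT or either hyl1-2 replicate. In share, 10.2% and 9.96% in hyl1-2 lay below 11.5% and 19.6% in snrk2.2/3/6, a difference of -0.62 that missed the threshold (adjusted p = 0.125, edgeR). miR162a-3p/b-3p, which targets DCL1, stood at 46.9 and 11.4 RPTM in hyl1-2 and at 252 and 74.8 RPTM in snrk2.2/3/6 (-2.48, SE 0.97, adjusted p = 0.03, edgeR), a call lost with any library left out but snrk2.2/3/6 replicate 2.

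miR166a-3p/b-3p/c/d/e-3p/f/g, which targets the HD-ZIP III factors of leaf polarity, was among the abundant sequences with no call on either scale. It stood at 856 and 425 RPTM in hyl1-2 and at 1389 and 931 RPTM in snrk2.2/3/6 (log2 difference -0.86, SE 0.69, adjusted p = 0.31, edgeR). Its shares of 23.5% and 11.7% in hyl1-2 overlapped the 8.09% and 14.4% of snrk2.2/3/6. miR161.1, another miRNA directed at PPR genes, stood at 144 and 203 RPTM against 816 and 295 RPTM (-1.68, SE 0.79, adjusted p = 0.0636, edgeR), and its shares of 3.96% and 5.61% overlapped 4.75% and 4.55%.

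**Figure D4:**
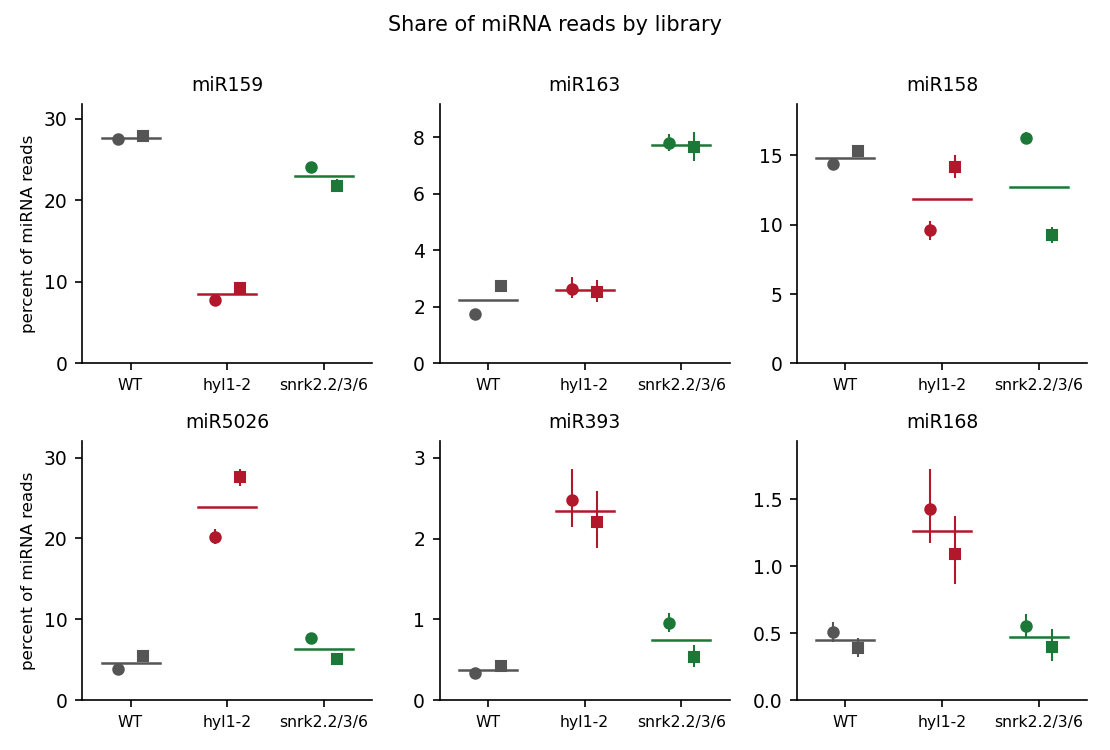
Percent of miRNA reads (vertical, from 0) of 6 families in each library; circles are replicate 1, squares replicate 2, vertical bars 95% Wilson intervals and horizontal lines the mean of 2 libraries. miR159 is low in hyl1-2 (7.79% and 9.21%), miR163 is high in snrk2.2/3/6 (7.82% and 7.67%), miR158 overlaps between the mutants, and miR5026, miR393 and miR168 are high in hyl1-2.

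Grouped by what their targets do, the families divided as follows, beside 18 of 39 families lower in abundance with a median of -2.10 and 7 lower and 8 higher in share with a median of -0.44. The groups were drawn with earlier results of these data known. Of 15 families with targets in development and hormone response, 5 were lower in abundance (miR159, miR169, miR319, miR156 and miR167). The median of the 15 was -1.77. In share 1 was lower (miR159) and 2 were higher (miR393 and miR164). As single sequences, miR156a-5p/b-5p/c-5p/d-5p/e/f-5p, miR167a-5p/b and miR319a/b missed the threshold in abundance (adjusted p = 0.05365, 0.0515 and 0.324, edgeR). The values of miR169 and miR393 are those of miR169f-3p and miR393b-3p in all but a few reads. Of 3 families that target the silencing machinery, miR162 and miR403 were lower in abundance and miR168 had a larger share. Of 2 copper families, miR398 was lower in abundance and miR408 had a larger share, although miR408-3p alone missed the threshold (adjusted p = 0.0757, edgeR). Of 2 families tied to sulfate and phosphate supply, miR395 was lower in abundance and miR399 had a larger share. Of 2 families with PPR targets, miR158 was lower in abundance and miR161 was not called. Of 2 triggers of trans-acting siRNAs, miR173 was lower on both scales and miR390 was not called. The other 13 families, most of them known from few plant species, had 7 lower in abundance (median -2.83), 5 lower in share (miR781, miR824, miR447, miR391 and miR163) and 3 higher in share (miR5026, miR822 and miR840). At most 3 families were tested in each of the 5 smaller groups, so their counts describe single families.

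The use of hairpin arms was compared within libraries for 14 hairpin groups with at least 20 reads of both arms together in every library, where the minor arm is the one with fewer reads in WT. Its percent was higher in both hyl1-2 libraries than in both snrk2.2/3/6 libraries in 3 groups, lower in 6 and overlapping in 5. The 6 were miR159b, miR162a/b and miR393a/b, whose 5p strand made up at most 1.82% in any of the mutant libraries, and miR167a/b, miR156a/b/c/d/e/f and miR157a/b/c. The 3p strand of miR156a/b/c/d/e/f made up 14.8% and 11.9% in hyl1-2 against 17.2% and 26.9% in snrk2.2/3/6. The 5p strand of miR168a/b made up 43.1% and 74.0% in hyl1-2 against 31.9% and 29.3% in snrk2.2/3/6, with 42.9% and 47.5% in WT. The 5p strand of miR396a made up 71.9% and 65.7% against 53.1% and 53.8%, on 32 and 35 reads of both strands in hyl1-2. The 5p strand of miR408 made up 30.8% and 44.1% against 30% and 28.9%. Only for miR168a/b in hyl1-2 replicate 2 did the 95% Wilson interval (62.9 to 82.7) lie clear of both snrk2.2/3/6 intervals (25.2 to 39.4 and 17.6 to 44.5) among these 3. Of the 6 lower groups, 1 hyl1-2 library lay clear in the same way, replicate 2 of miR167a/b (0 of 87 reads, up to 4.23%, against lower limits of 4.24% and 6.09%), and in the other 5 the interval of each hyl1-2 library overlapped that of at least 1 snrk2.2/3/6 library. With at least 50 reads required, 0 groups were higher and 3 lower, out of 8. Groups join hairpins that share a sequence, so a percent can also follow the output of different genes. The counted 3p strand of miR167a/b comes from MIR167a, and its 5p strand from both MIR167a and MIR167b.

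Features of the sequences and hairpins were set beside the differences as a description. The 5′ base is known to influence which ARGONAUTE protein binds a small RNA. The 9 tested sequences with a 5′ A had a median log2 difference of -0.20 in abundance and 1.37 in share, and 4 of them had a larger share in hyl1-2 (miR5026, miR393b-3p, miR408-5p and miR840-5p) and 0 a lower one, beside 16.9% larger and 22% lower over all tested sequences. The 35 with a 5′ U had medians of -2.14 and -0.53, with 9 lower and 5 higher in share. The 9 with a 5′ G had 3 lower and 1 higher, and the 6 with a 5′ C had 1 lower and 0 higher. Only 2 sequences with a 5′ A had a mean of at least 50 reads, miR5026 and miR393b-3p. Strands of the 5p arm had a median abundance difference of -1.26 (26 sequences) and those of the 3p arm -2.48 (33 sequences), but at a mean of at least 50 reads the medians were -2.24 and -2.13. Across the 59 sequences, the Spearman correlation of the abundance difference was -0.03 with precursor length, 0.15 with precursor GC content, -0.20 with folding energy per nt, 0.01 with the number of unpaired bases in the mature strand and 0.04 with the level in WT; the sequences share libraries, and several share a precursor.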

How the data were processed

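Per the labels and the study's methods, the authors isolated total RNA from rosette leaves, sequenced small RNA and mapped reads between 18 and 30 nt to the TAIR10 genome. Those with the exact sequence of a mature miRNA in miRBase release 21 were counted. Mapping tool and version are not given in the sources used here. The deposited counts are whole reads without normalization. The deposited RPTM values are a signal that the authors computed by dividing each count by the genome-matched total and multiplying by 10000000. That total was recovered from both values. A read with a shifted end is not in the table, so altered cut sites were not analysed here.

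Groups came from the sample titles and genotypes. Counts were tested with edgeR 4.0.16 (R 4.3.3; glmQLFit, glmQLFTest, all 6 libraries, genotype as the only term, no TMM factors, Benjamini-Hochberg adjustment, threshold 0.05), with genome-matched totals (abundance) or miRNA totals (share) as library sizes. Standard errors are the log2 difference divided by the square root of F. Families are sums by miRNA number. Scripts were run on simulated counts with a smaller spread than the abundance data, which checks the code and not the error rate here. Alternatives used DESeq2 1.42.0, limma 3.58.1 with pseudocounts of 1 and 0.5, TMM, other filters, the 4 mutant libraries alone, a replicate block and leaving out each library; the crossed block was added after seeing the data. The floor is 3 reads over the group. Positions are exact matches to TAIR10.1 (RefSeq), folded with RNAfold 2.7.2. Figures were drawn with matplotlib 3.10.9. Tables were made in Python 3.11.15 with scipy 1.17.1, numpy 2.4.6 and pandas 2.3.3.

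The members and lists were chosen with earlier results of these data known. Named were the 12 families with the smallest adjusted p lower in abundance, all families called in share, the 10 largest called differences in each direction and scale with separated libraries, the 10 most abundant sequences, members of the role lists and both arms of a hairpin. The copy ratios and miR396 precursors were chosen after their values were seen.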

Additional observations from a re-analysis of the deposited data

How the results depend on the processing

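With 2 libraries per genotype, counts of calls were the least stable values, and the cause of each shift was not tested. TMM factors moved the median log2 difference of the tested sequences from -2.10 to -0.16 on abundance and from -0.46 to -0.01 on share; 8 sequences and 7 families were then lower and 10 and 6 higher in abundance, 7 sequences were lower in share, and miR158a-3p turned to 0.061 in abundance. Without a filter on low counts edgeR called 0 of 174 sequences and 0 of 104 families lower in abundance (40 and 21 at an unadjusted p under 0.05). With a mean of at least 50 reads, 14 sequences were lower in abundance, 5 lower and 4 higher in share, and 2 families lower and 3 higher in share. With only the 4 mutant libraries, 12 sequences and 6 families were lower in abundance, and 7 sequences lower and 6 higher in share. DESeq2 called 1 sequence and 1 family higher in abundance, and limma 1 sequence with either pseudocount. With miR159 left out of the miRNA total, 11 families were lower in share. With arms of at least 50 reads, 0 hairpin groups had a higher and 3 a lower minor arm.

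Same-numbered hyl1-2 and snrk2.2/3/6 libraries deviated with a correlation of -0.18, and no label ties a number to a shared batch, so the numbers only name the libraries. With the replicate block 26 sequences were lower in abundance, 9 lower and 8 higher in share, and 2 families lower and 4 higher in share. The crossed block gave 19, 14 and 12 sequences, and 12 families lower in abundance.

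Leaving out each library in turn gave 2 to 38 sequences lower and 0 to 3 higher in abundance, 7 to 12 lower and 5 to 10 higher in share, 0 to 27 families lower and 0 to 2 higher in abundance, 2 to 6 lower and 0 to 7 higher in share, and a ratio of totals from 1.78 to 4.73. Share calls of miR159a, miR163, miR393b-3p, miR396a-3p, miR396a-5p, miR396b-3p and miR5026 passed under all 15 alternatives. The low hyl1-2 totals limit the depth: 3 reads are 0.0420% and 0.0450% of the miRNA reads there.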
